A study of Mus musculus with 6 samples.

Results

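The genes described here encode the entry steps of sphingolipid synthesis: serine palmitoyltransferase (SPT), its ORMDL regulators and a pair of enzymes further along the same route. They were taken by name from the deposited table of transcript abundance in mouse hippocampus, and all 10 were found among its 55414 genes. CerM had been given to the mice behind 3 of the 6 libraries and vehicle to those behind the other 3. The labels state neither what CerM stands for nor its dose, duration, or the strain, sex and age of the mice. Titles name biological replicates without stating that every replicate was its own animal. The p-values therefore describe sample-to-sample spread, which may be partly technical. The series title concerns ceramide, gut bacteria, corticosterone-induced depression and mitochondria, and the comparison asks how hippocampal expression differs between CerM and vehicle.

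SPT joins serine to palmitoyl-CoA in the endoplasmic reticulum, the committed step of the pathway that leads to ceramide, sphingomyelin and the glycolipids of myelin and neuronal membranes. Its core pairs SPTLC1 with SPTLC2 or SPTLC3, a small subunit (SPTSSA or SPTSSB) raises its activity and shapes its choice of acyl-CoA, and the ORMDL proteins hold it back when ceramide is plentiful. KDSR reduces the product of SPT, ceramide synthases then attach a fatty acid, and DEGS1 adds the double bond that turns dihydroceramide into ceramide.

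The subunits that can replace each other differ in the sequence in front of their genes, and the promoters of both such pairs are shown for that reason. The lines give the 250 bases upstream of the RefSeq start on build GRCm38.p6, 5′ to 3′ on the gene's strand, with each CG dinucleotide in capitals.
Sptlc2, chr12:87388356-87388605, minus strand: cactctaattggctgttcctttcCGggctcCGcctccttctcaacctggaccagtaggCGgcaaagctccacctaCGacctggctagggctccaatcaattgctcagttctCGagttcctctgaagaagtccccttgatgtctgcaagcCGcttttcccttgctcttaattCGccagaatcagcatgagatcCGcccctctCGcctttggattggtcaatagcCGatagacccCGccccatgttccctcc
Sptlc3, chr2:139493663-139493912, plus strand: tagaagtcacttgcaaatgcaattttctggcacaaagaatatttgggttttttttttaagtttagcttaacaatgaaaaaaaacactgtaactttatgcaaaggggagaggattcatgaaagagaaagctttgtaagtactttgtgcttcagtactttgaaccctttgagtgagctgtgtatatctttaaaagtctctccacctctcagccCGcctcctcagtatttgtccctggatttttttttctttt
Sptssa, chr12:54656573-54656822, minus strand: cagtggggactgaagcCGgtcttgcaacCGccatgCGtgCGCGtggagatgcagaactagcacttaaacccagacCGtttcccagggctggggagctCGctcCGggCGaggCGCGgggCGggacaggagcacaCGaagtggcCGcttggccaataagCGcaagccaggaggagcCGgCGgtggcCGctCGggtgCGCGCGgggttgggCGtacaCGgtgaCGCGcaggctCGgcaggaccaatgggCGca
Sptssb, chr3:69859895-69860144, minus strand: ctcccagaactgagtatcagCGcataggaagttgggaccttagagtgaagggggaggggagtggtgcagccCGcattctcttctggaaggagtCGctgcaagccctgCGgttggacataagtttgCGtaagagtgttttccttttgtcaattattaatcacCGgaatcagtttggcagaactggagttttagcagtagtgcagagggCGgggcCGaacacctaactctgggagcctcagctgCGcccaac
The window of Sptlc3 held 1 CG and that of Sptlc2 held 11, while Sptssb had 9 and Sptssa 28. The other 6 genes had between 17 (Ormdl2) and 25 (Ormdl1). Over all 32851 RefSeq promoter windows the median was 6, and 18.8% of them had as few CG dinucleotides as Sptlc3 or fewer. A GC box (GGGCGG on either strand) was in the windows of 8 of the 10 genes, all but Sptlc3 and Degs1, against 32.7% of all windows. Each of these 8 windows had more CG dinucleotides than the median window. The share with a GC box among windows as rich in CG was not counted. A CCAAT box (CCAAT on either strand) was in 5 of the 10, with 5 copies in Ormdl2, 3 in Sptlc2, 2 each in Sptssa and Ormdl1 and 1 in Sptlc1, against 33.8% of all windows. No window held TATAAA on either strand, which 12.4% of all windows had. The 2 genes with the fewest CG dinucleotides, Sptlc3 and Sptssb, were also the 2 with the lowest transcript levels, described next. Sptssb still lay above the median of all windows, 62.2% of which had as few or fewer. Among the other 8 genes the count did not follow the level. Ormdl1, with 25, had a mean of 7.29 TPM, and Degs1, with 19, had 84.8 TPM. A link between the count and the level was not tested.

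The ORMDL genes have coding regions of equal length, 459 bases without the stop codon, that line up without a gap. Their first 90 coding bases (GENCODE M21, 5′ to 3′) are shown because they tell how far sequencing reads can tell the genes apart, with capitals where a base differs from Ormdl3.
Ormdl3: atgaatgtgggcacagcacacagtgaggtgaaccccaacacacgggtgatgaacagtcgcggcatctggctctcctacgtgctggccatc
Ormdl1: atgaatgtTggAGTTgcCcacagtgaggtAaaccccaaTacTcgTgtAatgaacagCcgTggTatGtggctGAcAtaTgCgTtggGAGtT
Ormdl2: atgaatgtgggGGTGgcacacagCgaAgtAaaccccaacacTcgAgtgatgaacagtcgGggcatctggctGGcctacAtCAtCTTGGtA
In this stretch Ormdl1 differed from Ormdl3 at 25 bases and Ormdl2 at 21. Over the whole coding region, identity was 75.6% between Ormdl2 and Ormdl3, 73.0% between Ormdl1 and Ormdl3 and 73.0% between Ormdl1 and Ormdl2, and the longest run shared by any pair was 19 bases. Sptlc2 and Sptlc3 were 62.4% identical with a longest shared run of 20 bases, and Sptssa and Sptssb were 52.9% identical with a longest run of 8.

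Transcript levels were given as TPM, a relative abundance that allows for transcript length, so that levels of different genes can be set side by side. The 10 genes spanned a wide range, from a mean of 84.8 TPM for Degs1 to 0.43 for Sptlc3 over 6 libraries. Ormdl3 followed Degs1 at 45.9, then came Sptssa at 24.6, Sptlc1 at 19.2, Sptlc2 at 14.9, Ormdl2 at 10.4, Kdsr at 9.21, Ormdl1 at 7.29 and Sptssb at 1.91. Of the 9 neighbouring pairs in this order, 7 kept it in 6 of 6 libraries. A two-sided exact sign-flip permutation test over libraries gave p = 0.0312 for each of these 7 pairs, the smallest that 6 libraries allow. Adjusted over the 9 pairs, this p was 0.0402. The exceptions were Sptssa over Sptlc1, in order in 5 of 6 libraries (exact permutation p = 0.0625, adjusted 0.0703), and Ormdl2 over Kdsr, in order in 4 of 6 (exact permutation p = 0.25, adjusted 0.25). The order was taken from the same 6 libraries, and any pair in order in 6 of 6 gets the smallest p, whatever its fold. The p-values therefore give no separate support to the order. A bias in a gene's level that all libraries share would not show in them. The closest of the kept pairs were Kdsr over Ormdl1, between 1.02-fold and 1.97-fold in single libraries, and Sptlc1 over Sptlc2, between 1.03-fold and 1.48-fold.

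**Figure D1:**
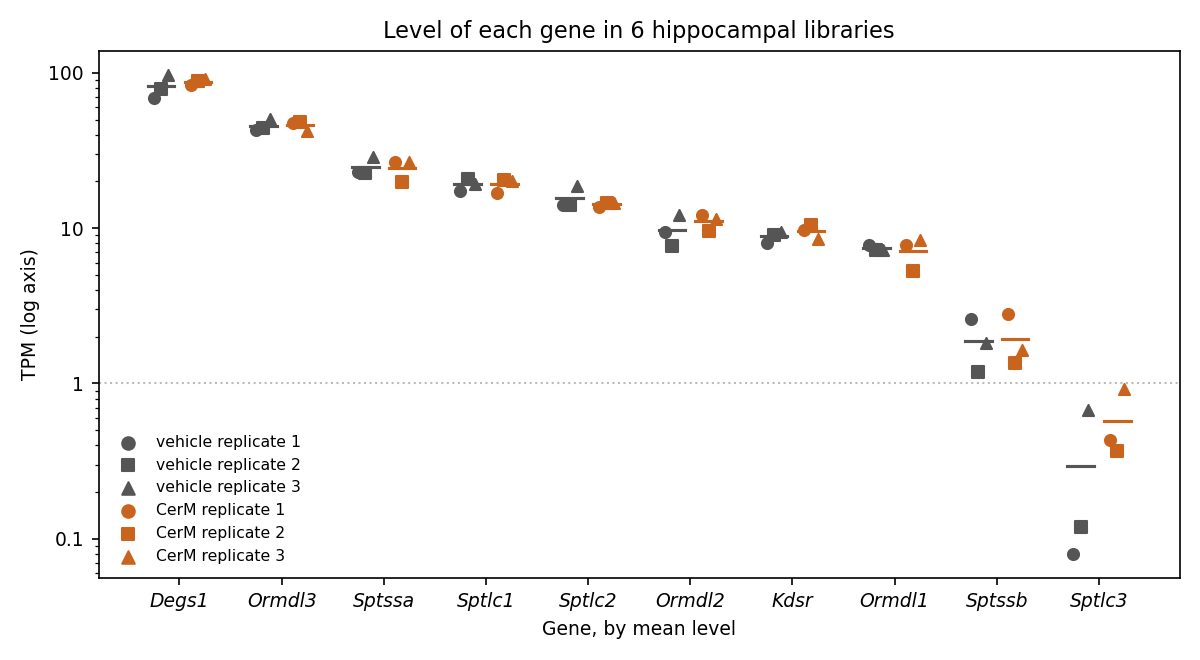
Transcript level of each gene (TPM, log axis) in 3 vehicle and 3 CerM libraries, with 1 point per library and a bar at each group mean; the dotted line marks 1 TPM, the minimum mean for the test. Vehicle and CerM points overlap for each of the 10 genes, and Sptlc3 alone lies below 1 TPM in all 6 libraries.

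Treatment did not separate any of these genes. Of the 10 members, 9 reached the mean of 1 TPM needed for the test, and limma called 0 of those 9 at an adjusted p below 0.05 and 0 at an unadjusted p below 0.05, with a smallest unadjusted p of 0.345. Over all 14916 tested genes limma called 0 (0%), 402 (2.7%) passed at the unadjusted level, and 1089 (7.3%) had groups that did not overlap. None of the 9 tested members had groups without overlap. Their log2 fold changes of TPM + 1, CerM over vehicle, ran from −0.12 to 0.18 with a median of 0.01, beside a median of 0.03 over all tested genes. Of the 9, 6 lay above 0, beside 58.8% of all tested genes. On this TPM + 1 scale, the 95% confidence intervals lay within 2-fold in either direction for 9 of the 9. They lay within 1.5-fold for 7, so smaller differences remain possible. For all tested genes these shares were 90.2% and 63.7%. The scale understates the change of low genes. For Sptssb, at a mean of 1.91 TPM, the interval therefore does not keep the change in TPM itself within 2-fold.

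**Figure D2:**
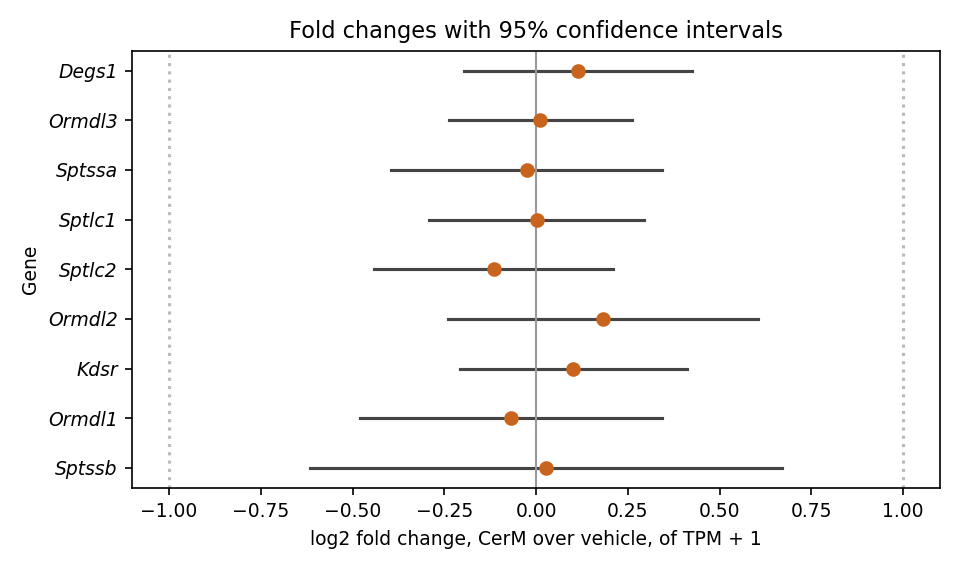
Log2 fold change of TPM + 1, CerM over vehicle (points), with 95% confidence intervals of the limma fit (lines), for the 9 tested genes in order of level; dotted lines mark 2-fold in either direction. Each interval crosses 0, and Sptssb, at the lowest level of the 9, has the widest, from −0.61 to 0.67.

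Sptlc1, the subunit that every SPT complex needs, stood at 16.9, 20.5 and 20.1 TPM in CerM libraries 1 to 3 and at 17.3, 20.9 and 19.3 TPM in vehicle libraries 1 to 3. The first library of each group was the lowest of its group, and the group means nearly coincided, at 19.2 ± 1.97 and 19.1 ± 1.80 TPM (SD, n = 3 each). Its log2 fold change was 0.00 ± 0.13 (SE).

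Sptlc2, which carries the catalytic site together with Sptlc1, was at 13.7, 14.5 and 14.5 TPM in CerM and 14.0, 14.1 and 18.8 in vehicle. Vehicle replicate 3 stood above the other 5 libraries, which lay within 1 TPM of each other. The log2 fold change was −0.12 ± 0.14 (SE), and without vehicle replicate 3 it was 0.01. Within a library, Sptlc2 was at 0.68 to 0.97 of the Sptlc1 level. The mean ratio (SD, n = 3 each) was 0.75 ± 0.05 for CerM and 0.82 ± 0.15 for vehicle, with an exact permutation p of 0.6.

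Sptlc3, the alternative catalytic subunit that favours shorter acyl chains, was at 0.43, 0.37 and 0.92 TPM in CerM and 0.08, 0.12 and 0.68 in vehicle. It fell below the minimum for the test. Its level was between 0.57% and 6.34% of that of Sptlc2 in the same library, and the groups overlapped in this ratio as well. On the log2 scale the ratio differed by 1.62, CerM over vehicle, the largest difference of the 9 ratios compared (exact permutation p = 0.3, adjusted p = 1), and by 0.60 with 0.5 TPM added to both genes. With no minimum level its log2 fold change was 0.30 ± 0.22 (SE), on the TPM + 1 scale that dampens low genes, with an adjusted p of 0.934 by limma.

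Sptssa, the more abundant small subunit, was at 26.8, 19.8 and 26.7 TPM in CerM and 22.8, 22.7 and 28.9 in vehicle. CerM held both the lowest library and 2 of the 3 highest, and the log2 fold change was −0.03 ± 0.16 (SE). Sptssb, the other small subunit, was at 2.82, 1.35 and 1.65 TPM in CerM and 2.62, 1.19 and 1.83 in vehicle. The first library of each group was the highest of its group, and no other library exceeded 1.83. Sptssb thus stood at 5.24% to 11.5% of Sptssa, and this ratio overlapped between the groups (exact permutation p = 0.9).

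Ormdl3 was the main ORMDL transcript in hippocampus, at 47.4, 48.4 and 42.4 TPM in CerM and 42.8, 43.9 and 50.4 in vehicle. It varied least of the 10 genes, with a highest library 1.19 times the lowest, and its log2 fold change was 0.01 ± 0.11 (SE). Ormdl2 was at 12.2, 9.58 and 11.4 TPM in CerM and 9.48, 7.64 and 12.1 in vehicle. It had the largest fold change of the tested members, 0.18 ± 0.18 (SE), about the size of its error, and vehicle replicate 3 lay between the CerM libraries. Ormdl1 was at 7.80, 5.30 and 8.35 TPM in CerM and 7.75, 7.28 and 7.25 in vehicle. CerM replicate 2 lay below the other 5 libraries, which ranged from 7.25 to 8.35. With that library left out the log2 fold change went from −0.07 to 0.11.

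Reads of Ormdl1 and Ormdl2 may be shared with overlapping or copied genes. A search of coding sequences against all annotated transcripts (at least 90% identity over 100 bases) found matches for Ormdl1, Ormdl2 and Ormdl3 only. Gm28778 matched Ormdl1 at 100% over 326 bases and was listed at 1.32 TPM in CerM replicate 2, the library with the low Ormdl1 value, and at 0 in the other 5. The part of Gm28778 in that Ormdl1 value was not tested. Dnajc14 shared 133 bases with Ormdl2 at 100% identity and was itself at 40.0 to 50.2 TPM. The remaining matches, Gm43105 and Gm49049 for Ormdl2 and Gm12538 for Ormdl3, were listed at 0 except for 0.41 TPM of Gm43105 in vehicle replicate 3. How reads were divided among these genes was not given in the sources used here.

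As a share of summed ORMDL transcripts, Ormdl3 made up 71.7% ± 4.30 for CerM and 72.7% ± 1.72 for vehicle (SD over 3 libraries, exact permutation p = 0.7). Ormdl2 made up 17.2% ± 1.78 and 15.4% ± 2.21 (exact permutation p = 0.4), and Ormdl1 11.1% ± 2.56 and 11.9% ± 1.33 (exact permutation p = 0.7). The order Ormdl3, Ormdl2, Ormdl1 held in all 6 libraries. Summed ORMDL transcripts were 2.82 to 3.98 times Sptlc1, at 3.39 ± 0.52 in CerM and 3.31 ± 0.43 in vehicle (exact permutation p = 1). All 9 ratios between members that were compared had an adjusted p of 1, and 3 libraries against 3 cannot give a p below 0.1.

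**Figure D3:**
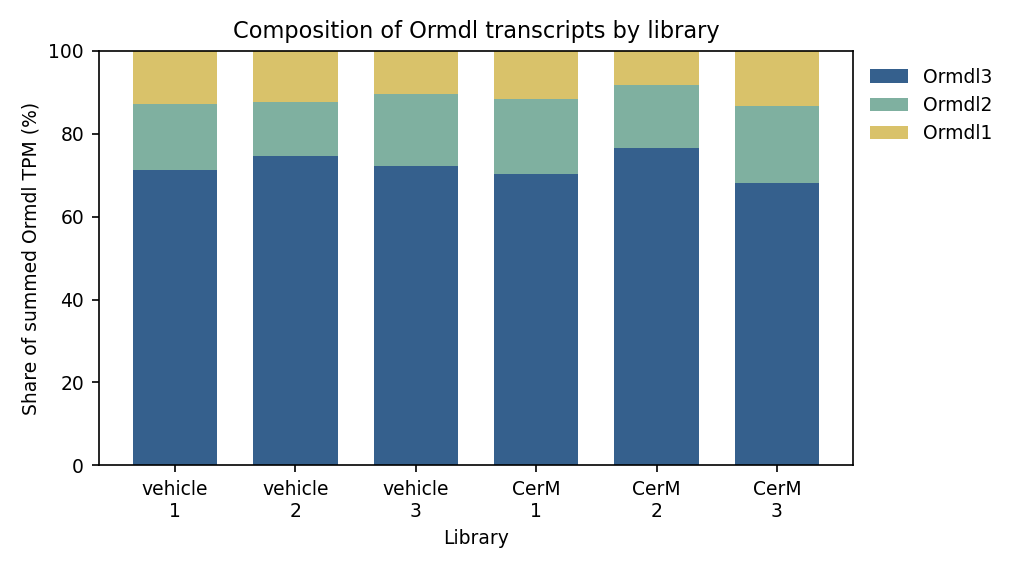
Share of Ormdl3, Ormdl2 and Ormdl1 in their summed TPM (%, stacked bars) in each vehicle and CerM library. Ormdl3 takes 68.2% to 76.5% in every library, and CerM replicate 2 has the smallest share of Ormdl1, 8.38%.

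Kdsr, the reductase that follows SPT, was at 9.72, 10.5 and 8.54 TPM in CerM and 8, 9.08 and 9.45 in vehicle. The groups were interleaved, with a log2 fold change of 0.10 ± 0.13 (SE), and Kdsr stood at 0.43 to 0.57 of Sptlc1 (exact permutation p = 0.5 between groups). Degs1, the desaturase at the end of the route, was at 83.2, 89.0 and 91.2 TPM in CerM and 68.9, 79.2 and 97.2 in vehicle. Both the lowest and the highest library were vehicle ones, and the log2 fold change was 0.11 ± 0.13 (SE). Degs1 exceeded Kdsr by 8.52-fold to 10.7-fold in single libraries, with no difference between groups beyond their spread (exact permutation p = 1).

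The libraries differed in the markers of other tissues they held. Markers of choroid plexus, the epithelium that secretes cerebrospinal fluid, were detected as 6 of 6 in each library, and their summed level was 304 to 10939 TPM in CerM and 252 to 15699 in vehicle. CerM replicates 1 and 3 and vehicle replicate 3 were the high libraries, at 9296, 10939 and 15699 TPM, and the other 3 lay between 252 and 304. These were also the 3 libraries with the most Sptssa (26.7 to 28.9 TPM against 19.8 to 22.8 in the others), Ormdl2 (11.4 to 12.2 against 7.64 to 9.58) and Sptlc3 (0.43 to 0.92 against 0.08 to 0.37). These 3 genes were picked after their values were seen, and the other members did not split the libraries this way. Degs1, for example, was at 89.0 TPM in CerM replicate 2 and 83.2 in CerM replicate 1. How many of all genes split this way was not counted. The part of choroid plexus in the levels of the 3 genes was not tested. In whole tissue, more cells of a type and more RNA per cell cannot be told apart. With the choroid plexus level as a covariate, the log2 fold change went from 0.18 to 0.07 for Ormdl2 and from −0.03 to −0.14 for Sptssa. Members that did not split with the markers moved too: Ormdl1 from −0.07 to −0.13, Degs1 from 0.11 to 0.055, Sptlc2 from −0.12 to −0.17 and Sptssb from 0.028 to −0.029. Sptlc1, Ormdl3 and Kdsr moved less, and limma called 0 of the 9 members.

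**Figure D4:**
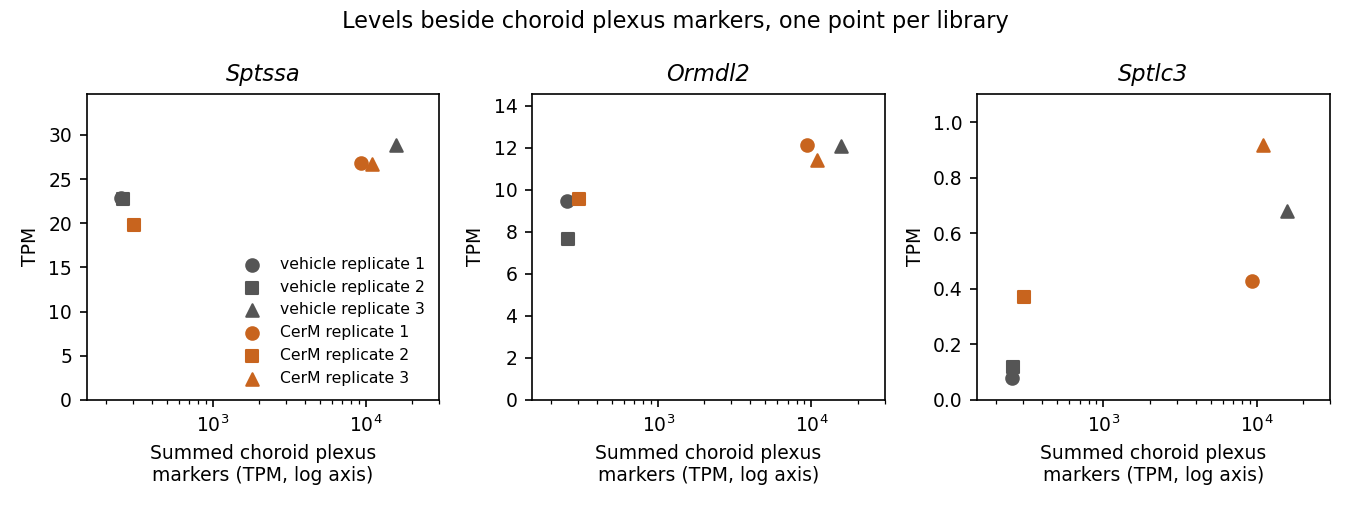
Level of Sptssa, Ormdl2 and Sptlc3 (TPM) in each library against the summed level of 6 choroid plexus markers (TPM, log axis), with 1 point per library, vehicle in grey and CerM in orange. The 3 libraries on the right, 2 CerM and 1 vehicle, lie above the 3 on the left for each of the 3 genes. The 3 genes were picked because they split this way, which the other members did not.

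Other markers also moved with single libraries. Summed oligodendrocyte markers (8 of 8 detected in each library) were lowest in vehicle replicate 1, at 3930 TPM, and between 6031 and 7173 in the other 5, and Degs1 was lowest in the same library. Neocortex markers (7 of 7) were at 293 TPM in that library and 130 to 135 in the others, and its 7 hippocampal neuron markers summed to 280 TPM against 393 to 461. Without vehicle replicate 1 the log2 fold change of Degs1 was −0.00066. CerM replicate 3 held 663 TPM of 5 fat tissue markers, against 0.45 to 1.78 in the other libraries, where Adipoq, Cidec and Cfd were at 0 in at least 1 library. Without both libraries limma called 0 of the 9 members. Neuron markers (8 of 8) summed to 4052 to 4196 TPM in CerM and 4220 to 4888 in vehicle. These sums did not overlap, but the groups overlapped in each of the 8 genes, 4 of which lay above 0 and 4 below. Snap25 was the largest part of the sum, at 1854, 1655 and 1903 TPM in CerM libraries 1 to 3 and 2548, 2016 and 1848 in vehicle. Across the other lists, the log2 fold changes of the 8 oligodendrocyte, 3 oligodendrocyte precursor and 7 hippocampal neuron markers lay above 0. So did those of the 6 choroid plexus and 5 fat tissue markers, while those of the 7 neocortex markers lay below. Summed levels of these lists overlapped between the groups. By limma, 1 of the 7 neocortex markers passed at an unadjusted p below 0.05, as did 2.7% of all tested genes. The part of these markers in the members' values was not tested. Astrocyte markers (6 of 6) summed to 1394 to 1757 and 1353 to 1547, microglia (6 of 6) to 165 to 211 and 173 to 183, and endothelium (5 of 5) to 163 to 200.5 and 182 to 195. Oligodendrocyte precursors (3 of 3) summed to 79.8 to 92.5 and 64.5 to 94.2, and striatum and thalamus (7 of 7) to 198 to 252 and 146 to 296.

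Genes on either side of these steps did not pass the test either. Of 6 tested genes that encode ceramide synthases or dihydroceramide desaturase 2, which act between KDSR and DEGS1 or beside DEGS1, limma called 0, with 5 above 0 and a median log2 fold change of 0.13. Cers2, for very long acyl chains, had 71.3 ± 7.52 TPM with CerM and 59.1 ± 16.9 with vehicle, and Cers6 had 17.3 ± 1.93 and 15.3 ± 2.51 (SD, n = 3 each). Vehicle replicate 1, the library with the fewest oligodendrocyte markers, held the lowest Cers2, 41.1 TPM against 61.7 to 79.2 in the other 5. Of 18 genes of ceramide use and breakdown, 0 were called and 11 lay above 0 (median 0.03). Smpd4, a sphingomyelinase, was at 16.0 ± 5.21 against 10.8 ± 1.33 TPM, with CerM replicate 2 at 21.9, and Ugt8a, which makes galactosylceramide, at 28.6 ± 2.97 against 22.5 ± 5.62. Ugt8a was also lowest in vehicle replicate 1, at 16.2 TPM against 24.6 to 30.6 in the other 5. Of 6 genes for sphingoid bases and their phosphates, 0 were called and 4 lay above 0 (median 0.08). Sgpl1, the lyase through which sphingoid bases leave the pathway, was at 12.1 ± 1.44 against 10.04 ± 1.31 TPM, and Sphk2, a sphingosine kinase, at 16.3 ± 0.98 against 14.9 ± 2.71.

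The substrates of SPT come from serine synthesis and fatty acyl-CoA, and their genes were counted in the same way. Of 8 genes of serine supply, 0 were called and 6 lay above 0 (median 0.06). Slc1a5, a transporter of neutral amino acids, had 5.48 ± 6.69 TPM with CerM and 1.58 ± 1.10 with vehicle, and its CerM mean rests on the library with fat tissue markers, CerM replicate 3, at 13.2 TPM against 0.63 to 2.79 in the other 5. Psat1, an enzyme of serine synthesis, had 104 ± 10.4 and 96.1 ± 5.31. Of 12 genes of palmitoyl-CoA supply and use, 0 were called and 10 lay above 0 (median 0.09). Elovl1, an elongase of long acyl-CoA, was at 23.7 ± 2.09 against 18.8 ± 3.55 TPM, and Acsl1, an acyl-CoA synthetase, at 27.5 ± 4.01 against 22.1 ± 4.11. Cers6, Elovl1 and Acsl1 were also lowest in vehicle replicate 1, as were Sgpl1, Sphk2 and Psat1. No gene of these 5 lists passed at an unadjusted p below 0.05, and the smallest was that of Smpd4, 0.054 by limma. Groups did not overlap for 1 of the 6 ceramide synthase and desaturase genes, Cers5, which was higher with CerM. The same held for 2 of the 18 genes of ceramide use, Smpd4 (higher) and Ugcg (lower). It also held for 1 of the 12 palmitoyl-CoA genes, Acsl4 (lower), and for 0 in the remaining lists. Over all tested genes this share was 7.3%.

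**Figure D5:**
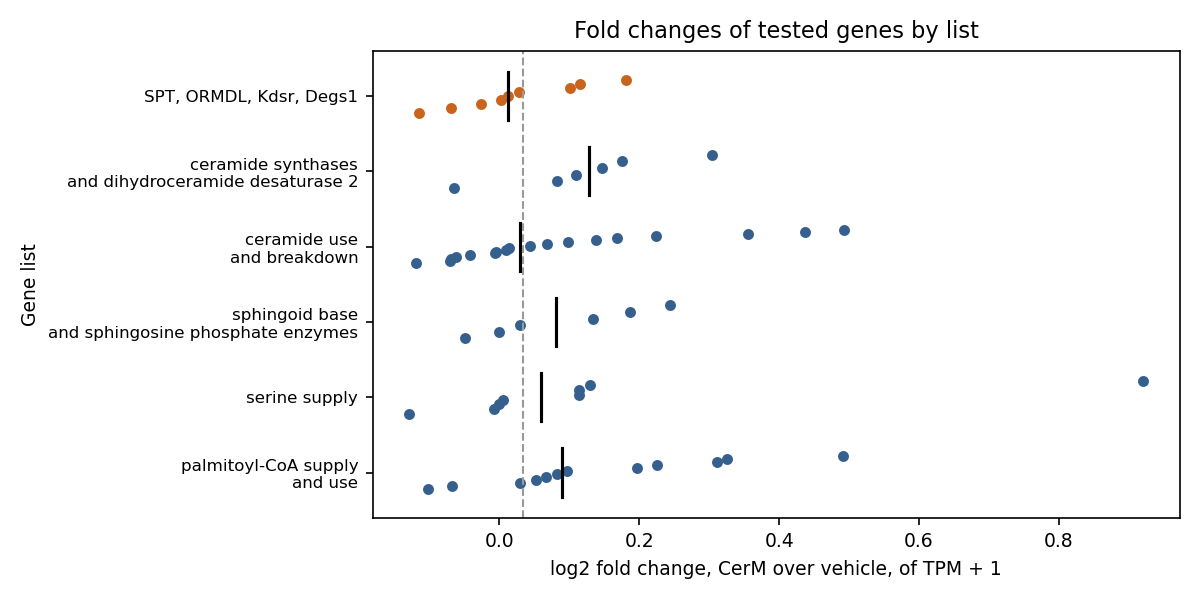
Log2 fold change of TPM + 1, CerM over vehicle, of each tested gene (points) in the SPT and ORMDL group (orange) and 5 lists of related genes (blue), with the median of each as a black bar and the median of all tested genes as a dashed line at 0.03. The 9 SPT and ORMDL points lie between −0.12 and 0.18, and Slc1a5 is the farthest point of the other lists at 0.92.

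Genes with the most similar course over the 6 libraries were sought for 3 members among 8433 other genes with a mean of at least 10 TPM, as a description without a test. For Sptlc1 these were Inpp5k, Dolk and Cbx5, for Sptlc2 Tmem205, Tm2d2 and Mettl16, and for Ormdl3 Chil1, Golm2 and Steep1. Similarity by Pearson's r was 0.98 for each of the first 3 genes, between 0.97 and 0.99 for the second 3 and between 0.99 and 0.996 for the last 3. For Sptlc2 it rests largely on vehicle replicate 3, the highest library for Sptlc2 and its 3 genes. Tmem205, for example, was at 63.1 TPM there and at 41.6 to 45.6 in the other libraries. With so few libraries, 54, 44 and 81 genes reached a similarity above 0.9 with Sptlc1, Sptlc2 and Ormdl3.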

How the data were processed

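RNA of 6 hippocampal samples was made into TruSeq libraries and sequenced, per the labels' protocols. The submitters' processing notes list the build GRCm39 and the tools RSEM, StringTie and HISAT2, without versions or roles. The authors deposited TPM values for 55414 genes, with totals of 993379 to 995403 per library and 14546 to 15058 genes at 1 TPM or more. TPM keeps no depth, so no counting interval is given.

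Genes with a mean of at least 1 TPM (14916) were tested with limma 3.58.1 in R 4.3.3 on log2(TPM + 1) with a variance trend, two-sided, with Benjamini-Hochberg adjustment over all tested genes and a threshold of 0.05. Fold changes on this scale understate the change of low genes. Ratios and level order were compared by exact permutation in scipy 1.17.1. The fit was tested on simulated data. The named genes are the 10 members, the 2 of smallest p in each list, and the 3 most like Sptlc1, Sptlc2 and Ormdl3 that have a full name; other genes were named after their values were seen. The members and lists were chosen with earlier results of these data known. Promoters came from RefSeq (10 of 10 genes matched by symbol, GRCm38.p6) and coding sequences from GENCODE M21, both of an older build than the table. They were compared with Biopython 1.88 and blastn 2.17.0. Alternatives changed pseudocount, minimum, scaling, variance model, weights, block and libraries. Covariates for choroid plexus and neocortex and leaving out 2 libraries together were added after seeing the data.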

Additional observations from a re-analysis of the deposited data

How the results depend on the processing

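Over 19 alternatives limma called 0 of the members, and the members' median log2 fold change ran from −0.033 to 0.10. Over all genes, leaving out each library in turn gave 1 to 8 calls, and the neocortex covariate and leaving out 2 libraries gave 1 each. Counts called in the 5 related lists were 0 in each of 16 settings. Their medians with each library left out ran from −0.015 to 0.11 for ceramide use and breakdown and from 0.053 to 0.19 for palmitoyl-CoA supply, the highest without CerM replicate 1 in both. They ran from 0.056 to 0.22 for ceramide synthases, −0.0015 to 0.13 for serine supply and 0.018 to 0.13 for sphingoid base enzymes.

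The sign of small fold changes turned in several settings, and the cause was not tested. With sample weights the log2 fold changes were −0.081 for Sptlc1, 0.15 for Sptssa, 0.092 for Ormdl1, −0.0076 for Ormdl3 and −0.0051 for Kdsr. Quantile scaling gave −0.029 for Sptlc1 and −0.058 for Sptssb, and median-ratio scaling −0.026 for Sptlc1 and −0.016 for Ormdl3. The choroid plexus covariate gave −0.029 for Sptssb and −0.0070 for Ormdl3, and the neocortex covariate −0.070 for Sptlc1, −0.036 for Ormdl3 and −0.0040 for Degs1. Leaving out 2 libraries gave −0.10 for Sptlc1 and −0.029 for Degs1. With each library left out in turn, values ran from −0.066 to 0.085 for Sptlc1, −0.18 to 0.015 for Sptlc2, −0.096 to 0.11 for Sptssa, −0.18 to 0.21 for Sptssb, −0.18 to 0.11 for Ormdl1, −0.033 to 0.083 for Ormdl3 and −0.00066 to 0.25 for Degs1. Ormdl2 stayed above 0 in 19 of 19 settings, from 0.035 to 0.45. All settings refit the same libraries or a part of them, so this count adds no separate support. The highest value came with sample weights. That fit put 2696 of 14916 genes at an unadjusted p below 0.05 by limma, against 402 in the main fit.

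Ratios with each library left out differed between groups, on the log2 scale, by −0.16 to 0.41 for Sptssb to Sptssa, −0.089 to 0.10 for summed ORMDL to Sptlc1, −0.27 to 0.075 for Ormdl1 and −0.070 to 0.013 for Ormdl3 to summed ORMDL, −0.10 to 0.086 for Degs1 to Kdsr and −0.26 to 0.0068 for Sptlc2 to Sptlc1. For Sptlc3 to Sptlc2 the range was 1.08 to 2.41, with 0.60 at a pseudocount of 0.5. The order of levels held for 7 to 8 neighbouring pairs.

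Replicate numbers are shared between groups, but same-numbered libraries did not deviate together in each pair (r across genes 0.0083, 0.20 and 0.22). Differently numbered pairs ran from −0.21 to 0.065, so the same-numbered pairs of replicates 2 and 3 stood above each of them. Deviations were taken from the group means, so a high r in 1 pair pulls others down and the values are not independent. Choroid plexus markers were low in replicate 2 of both groups (304 TPM in CerM, 259 in vehicle) and high in replicate 3 (10939 and 15699). What these pairs share was not tested. With the replicate number as a block, limma called 0 genes and 0 members, and the fold change of Ormdl2 was 0.18 as before. Sequencing depth is unknown, and the precision of Sptlc3 and Sptssb is limited by their low levels.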
